A study of Mus musculus with 12 samples.

Results

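The Wnt ligands, their receptors and their antagonists were examined as 1 set of 55 genes among the 22350 protein-coding genes of GENCODE vM1 on chromosomes 1 to 19 and X of the mouse assembly mm9. The set was a fixed list of names and not picked by a rule on methylation, but it was chosen with earlier results of these data known. It held 19 Wnt ligands, 14 receptors and co-receptors, 10 secreted antagonists, 4 R-spondins and 8 intracellular components, and all 55 were found in the annotation. For each gene and sample the methylated and unmethylated CpG calls were pooled in the promoter, taken as 1000 bp either side of the gene start, and apart from it in the body, from beyond 1000 bp after the start to the gene end. A region was used where each of the 12 samples held 20 or more calls.

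DNA came from soft oral tissues of female B6C3F1/J mice, pooled from buccal mucosa, floor of the mouth and the hard palate. The values thus average over all cell types of these tissues. The age given is 8 weeks, stated ahead of quarantine and of the 5 weeks of dosing, so the mice were older at sampling. Methylation was measured by ERRBS (enhanced reduced representation bisulfite sequencing), which reads CpGs near MspI sites (CCGG). There were 4 groups of 3 samples. The DMSO group received the vehicle, and the DBP group the carcinogen DBP (dibenzo[def,p]chrysene), given 3 times a week over 5 weeks in doses of 24 nmol. The DBP + agent group was given the same DBP doses and a compound that its label calls only a chemopreventive agent, and the DBP + BR group the same doses and an extract named BR. Tissue was taken 48 h after the last dose.

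Wnt proteins are secreted lipid-modified ligands that bind Frizzled receptors together with the co-receptors Lrp5 and Lrp6, and the signal spares β-catenin from destruction by the Axin, Apc and Gsk3b complex. β-catenin then acts with the Tcf and Lef transcription factors. The Sfrp, Frzb and Wif1 proteins bind Wnts, Dkk1 and some of its relatives act on the co-receptors, and R-spondins enhance the signal. Promoters rich in CpG are usually unmethylated, and methylation of Sfrp, Dkk and Wif1 promoters is well known in human cancers.

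Depth differed between the groups. The DMSO samples held 3287367 to 7774032 CpG calls and the DBP samples 7515975 to 7974299, whereas the DBP + agent samples held 16908728 to 39615620 and the DBP + BR samples 17712547 to 78889043. Depth and treatment cannot be told apart in the comparisons of these last groups with DBP. Methylated calls made up 29.3 to 41.3% of all calls of a sample. In the CpGs of mitochondrial DNA of the same libraries they made up 3.92 to 16.9%, over 1086 to 23194 calls, and the part of incomplete conversion in low promoter values was not tested.

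In all, 8 CpGs in or near member genes passed the single-CpG thresholds described further on. The sequences around those that lie outside untranslated regions are shown here because these are the CpGs called. They are from mm9, on the strand of the gene, 5′ to 3′, with the tested CpG in capitals.
Wnt9a, chr11:59120012-59120073, plus strand, 388 bp upstream of the start: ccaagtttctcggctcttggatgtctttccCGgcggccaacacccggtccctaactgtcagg
Lrp6, chr6:134517044-134517105, minus strand, 91 bp upstream of the start: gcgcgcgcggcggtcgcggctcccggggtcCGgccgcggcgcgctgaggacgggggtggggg
Wnt3a, chr11:59102615-59102676, minus strand, in an intron 1609 bp after the start: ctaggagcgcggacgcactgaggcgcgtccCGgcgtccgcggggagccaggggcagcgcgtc
Wnt5b, chr6:119494867-119494928, minus strand, 561 bp upstream of the start: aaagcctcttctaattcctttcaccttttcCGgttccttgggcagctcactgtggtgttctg
Ror2, chr13:53332885-53332946, minus strand, in an intron 48578 bp after the start: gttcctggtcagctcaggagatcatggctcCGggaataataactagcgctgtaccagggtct
Sfrp1, chr8:24543918-24543979, plus strand, in an intron 21974 bp after the start: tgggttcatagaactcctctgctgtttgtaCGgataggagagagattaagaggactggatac
The window at Lrp6 held 14 CpGs and that at Wnt3a held 11, whereas those at Wnt5b and Sfrp1 held 1 each. The CpGs of Gsk3b, 328 bp after the start, and of Wnt11, 18350 bp after the start, lie in untranslated regions.

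Promoters of the set were poorly methylated in every group. Of the 55 promoters 42 had 20 or more calls in each sample, and the median of their mean levels over the 12 samples was 6.06%, beside 5.93% over the 10504 promoters of all genes that met the same condition. A mean under 10% was found in 34 of the 42, or 81.0%, beside 80.8% of all promoters. The 13 promoters without enough calls were those of Wnt7b, Wnt8a, Wnt8b, Wnt10b, Wnt16, Ror1, Sfrp5, Dkk4, Rspo4, Axin1, Axin2, Apc and Tcf7l2. The promoters of the set were rich in CpG, with a median of 120 CpGs and an observed over expected CpG ratio of 0.66, beside 61 and 0.47 over all 22350 promoters.

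**Figure D1:**
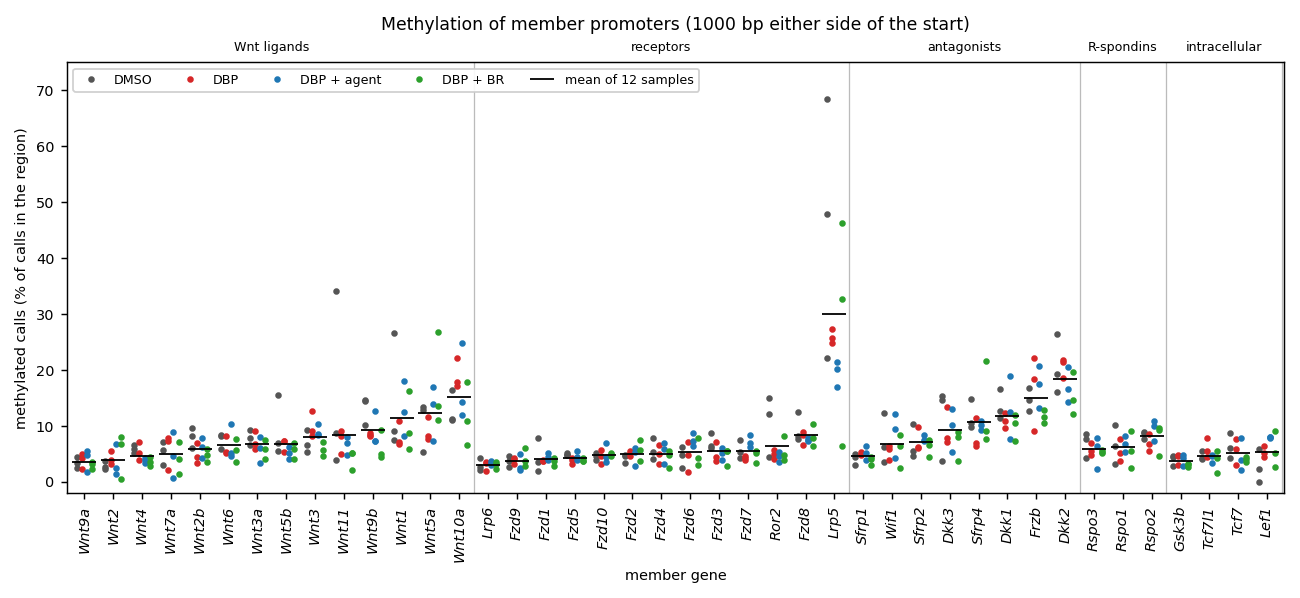
Percent of methylated CpG calls in the promoters of 42 member genes (vertical axis), ordered by class and by the mean of the 12 samples, with 1 point for each sample coloured by group and a black bar for the mean. Lrp5 stands apart with a mean of 30.04%, and 34 of the promoters have means under 10%.

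Among the 14 ligand promoters the median was 6.71%. The highest was that of Wnt10a, a ligand of tooth and hair development, on chr1:74837090-74839090. Its level was 16.4, 11.1 and 11.2% in DMSO samples 1 to 3, 22.2, 17.8 and 17.2% in DBP, 12.0, 14.2 and 24.9% in DBP + agent, and 6.62, 17.9 and 10.9% in DBP + BR. All 3 DBP samples lay above the DMSO samples, with 19.1% ± 2.70 (SD, n = 3) against 12.9% ± 3.01, and the other 2 groups overlapped with both. The window mixed parts here too: from 750 to 1000 bp after the start Wnt10a read 20.7% on average over the 11 samples with 20 or more calls, and from 500 to 749 bp 6.15% over 10 samples. The first of these bins gave 1.44% of the calls in DBP + BR sample 1, which had the lowest pooled level, and 47.9 to 85.5% in the other 11 samples. Within it Wnt10a read 18.1, 12.2 and 11.5% in DMSO and 28.2, 25.7 and 27.8% in DBP, without overlap. These calls are part of the pooled value, so this is no separate result. From 500 to 749 bp DMSO sample 3 read 10.2% and the DBP samples 6.98, 8.62 and 6.45%, and the other DMSO samples had too few calls. The lowest ligand promoter was that of Wnt9a, at 1.70 to 5.59% in the 12 samples. At Wnt11, a ligand of non-canonical signalling, DMSO sample 3 read 34.1% over 41 calls (95% Wilson interval from 21.6 to 49.5%) where the other DMSO samples read 8.77 and 4% over 171 and 50. Of the calls of Wnt11 in DMSO sample 3 41.5% came from 500 to 749 bp and 22.0% from 750 to 1000 bp after the start, and 0% from the 250 bp upstream of it, which gave 8 to 50.1% of the calls in the other samples. From 500 to 749 bp the 8 samples with 20 or more calls read 0 to 12.5%. DMSO sample 2 had 64% of its calls there and read 6.25% in that bin. No bin of DMSO sample 3 held 20 calls, and the source of its level was not tested. Wnt9b, which had the smallest unadjusted p of the member promoters over the 4 groups, read 10.2, 14.5 and 14.7% in DMSO and 8.76, 8.31 and 8.26% in DBP, without overlap, and 4.54 to 12.6% in the co-treated samples (edgeR adjusted p = 1.00).

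The 13 receptor promoters had a median of 5.08%. That of Lrp6 was the lowest, at 1.97 to 4.35% in the 12 samples, and 12 of the 13 had means under 10%. The exception was Lrp5, the other co-receptor, on chr19:3685564-3687564. It read 22.2, 68.4 and 47.8% in DMSO, 25.7, 24.9 and 27.3% in DBP, 17.1, 20.2 and 21.4% in DBP + agent, and 6.45, 46.3 and 32.7% in DBP + BR. The DBP + agent samples all lay below the DBP samples, while the samples of DMSO and of DBP + BR ranged over more percentage points than separated any group means. With 46 calls in DMSO sample 3, its 95% Wilson interval ran from 34.1 to 61.9%, for counting error only.

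The Lrp5 window had parts of opposite state, and the samples differed in how many calls came from each. More than 500 bp upstream of the start the level was 78.8% ± 10.3 (SD, n = 3) in DMSO, 80.4% ± 6.61 in DBP, 72.5% ± 6.53 in DBP + agent and 77.9% ± 7.31 in DBP + BR. From 500 bp upstream to 1000 bp after the start it was 5.65% ± 0.978, 3.53% ± 0.909, 3.68% ± 1.89 and 2.66% ± 2.31 in the same order. The upstream part gave 3.25% of the promoter calls in DBP + BR sample 1 and 73.7% in DMSO sample 2, the samples with the lowest and the highest pooled level. DMSO samples 2 and 3 had 15 and 18 calls in the rest of the window.

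**Figure D2:**
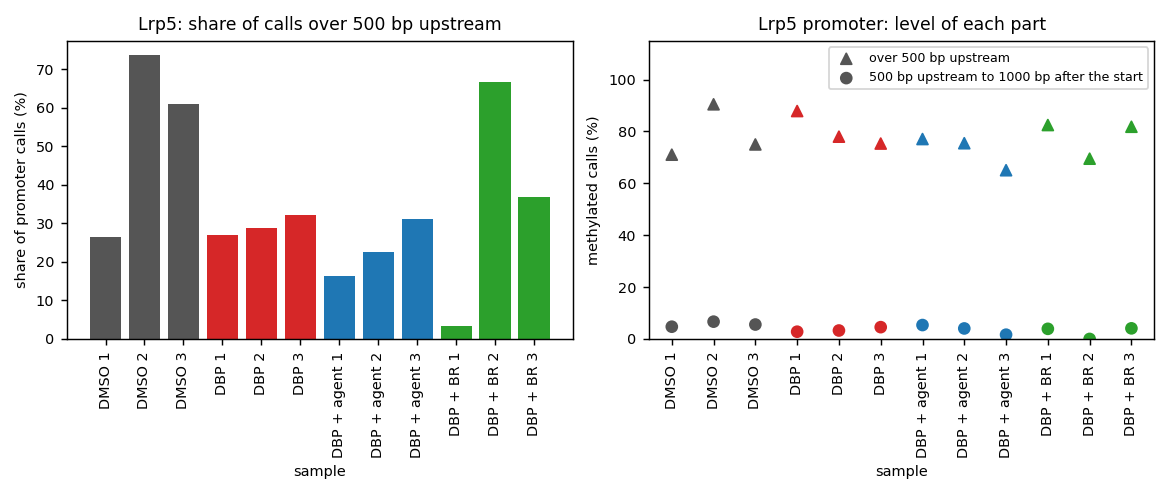
Left, share of the Lrp5 promoter calls of each sample (in percent) that came from more than 500 bp upstream of the start. Right, percent of methylated calls in that part (triangles) and in the rest of the promoter (circles) for the 12 samples coloured by group, with every triangle at 65.1% or more and every circle at 6.67% or less.

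The secreted antagonists had the highest class median, 10.01% over 8 promoters, and 4 of these had means under 10%. That order did not hold on positions read in all 12 samples, where ligands read 8.11% and antagonists 7.88%, or within 500 bp of the start, where R-spondins read 7.97% and antagonists 7.40%. Dkk2, an antagonist or weak agonist at the co-receptors, led at 18.5% over the 12 samples. It read 19.4, 26.5 and 16.1% in DMSO, 18.6, 21.8 and 21.4% in DBP, 16.7, 20.6 and 14.3% in DBP + agent, and 14.7, 12.2 and 19.6% in DBP + BR, and all groups overlapped. Sfrp1 was the lowest, at 2.96 to 6.38%. The antagonist promoters with the higher levels were poorer in CpG: the observed over expected ratio was 0.48 at Dkk2 and 0.85 at Sfrp1. Over the 42 promoters that ratio and the level had a Spearman rho of -0.66, and over all 10504 promoters of -0.52, as a description across genes that share libraries and depth.

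The 3 R-spondin promoters read lowest at Rspo3, with 2.38 to 8.57%, and highest at Rspo2, with 4.69 to 10.9%. Of the intracellular components 4 promoters could be read. Gsk3b, the kinase that marks β-catenin for destruction, was lowest at 2.61 to 4.82%, and Lef1 was highest with 0 to 9.14%. The 0 came from 48 calls in DMSO sample 3. An approximate bound for it, taken as 3 calls of 48, is 6.25%, which is not a Wilson limit. Lef1 read 8.05, 8 and 7.85% in DBP + agent, above the 6.36, 4.48 and 5.13% in DBP.

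Gene bodies differed far more among members than promoters did. Of the 55 bodies 43 had enough calls, and their mean levels ran from 8.33% at Wnt1 to 90.5% at Wnt2b, with a median of 55.6% beside 72.3% over the 8844 bodies of all genes. A body level under 30% was found in 16 of the 43, or 37.2%, beside 17.2% of all bodies. The low bodies were mostly those of ligands (9 of 18) and receptors (6 of 11), with 1 of 4 antagonists, 0 of 2 R-spondins and 0 of 8 intracellular components. The 6 low receptor bodies, all of Frizzled genes, were 2249 to 6190 bp long, and the other receptor bodies read were 30853 to 347974 bp. The low ligand bodies ran from 2980 to 42807 bp, beside a median of 17609 bp for bodies of all genes. The part of body length in the levels was not tested.

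**Figure D3:**
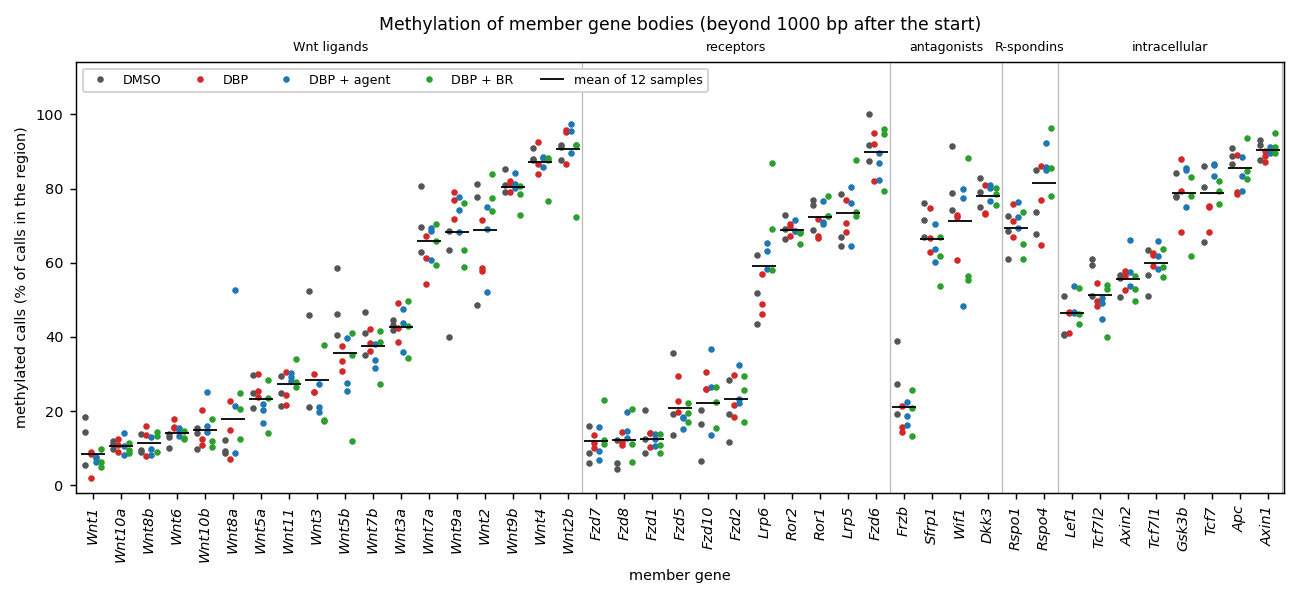
Percent of methylated CpG calls in the bodies of 43 member genes (vertical axis), ordered by class and by mean, with 1 point for each sample coloured by group and a black bar for the mean of 12 samples. Ligand bodies span 8.33% at Wnt1 to 90.5% at Wnt2b, and the 8 intracellular bodies have means of 46.4% or more.

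Wnt1, the founding mouse member of the family, read 5.51, 14.3 and 18.5% in DMSO, 1.96, 8.51 and 8.94% in DBP, 7.37, 7.62 and 6.36% in DBP + agent, and 4.91, 9.79 and 6.22% in DBP + BR. Its neighbour Wnt10b, 11706 bp away on chromosome 15, had a body level of 14.9%. The adjacent Wnt6 and Wnt10a, 6196 bp apart on chromosome 1, had body levels of 14.1 and 10.7%. Neighbours did not always share a state: Wnt3 and Wnt9b, 24328 bp apart on chromosome 11, read 28.4 and 80.4%, and Wnt3a and Wnt9a, 16175 bp apart on the same chromosome, 42.8 and 68.2%. Wnt2b at the other end read 72.3% in DBP + BR sample 3 and 86.5 to 97.3% in the other 11 samples.

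Among receptors the lowest body was that of Fzd7, at 6.15 to 23.1%, and the highest that of Fzd6, at 79.4 to 100%. Among antagonists Frzb was lowest, at 13.3 to 38.8%, and Dkk3 highest, at 73.1 to 82.9%. Rspo1 read 61.0 to 76.4% and Rspo4 64.9 to 96.3%. Axin1 was the highest intracellular body at 87.1 to 95.1%, and Lef1 the lowest at 40.5 to 53.6%. Over the 43 bodies the number of CpGs per 100 bp and the level had a Spearman rho of -0.74, beside -0.24 over all 8844 bodies, again as a description across genes.

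By distance from the start, the members were lowest in the first 500 bp after it, at 4.83% on average over the 12 samples, and were higher on both sides. From 1500 to 1999 bp after the start they read 15.3%, beside 24.8% over all protein-coding genes, but in the next 3 bins, from 2000 to 3499 bp, they read 30.9, 36.8 and 44.8% beside 31.3, 35.1 and 39.7%. From 3500 to 3999 bp they read 11.3% over 29 members and 255 or more calls a sample, beside 43.3%. Calls of a bin were pooled over genes and not averaged by gene, so members with more calls weigh more. In that bin the ligands read 8.84% over 243 or more calls a sample, and the intracellular components 44.7% over 12 or more. The receptors lacked calls there in some samples. Further bins hold fewer members and fewer calls, and their spread between samples was wide.

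**Figure D4:**
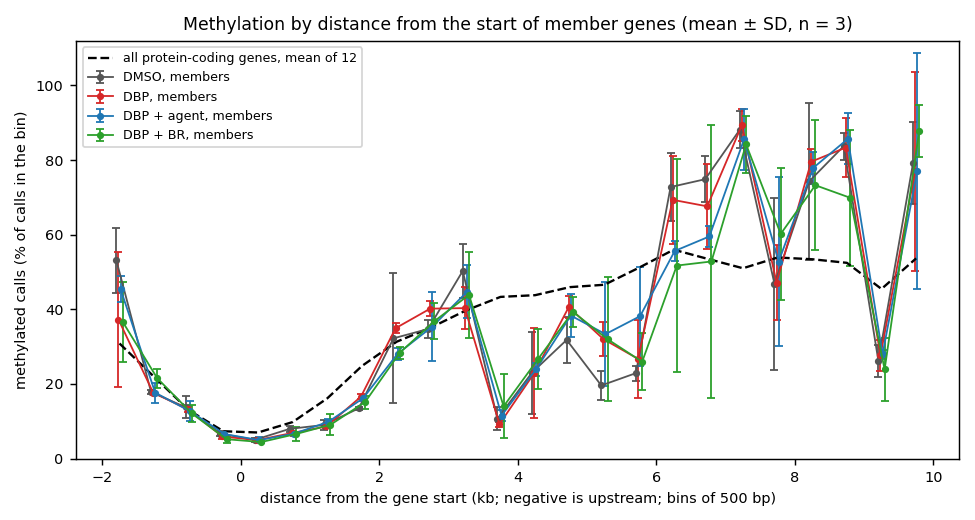
Percent of methylated CpG calls (vertical axis) in bins of 500 bp by distance from the gene start, for the member genes in each group (mean ± SD, n = 3) and for all protein-coding genes (dashed, mean of 12 samples). The 4 groups lie close together near the start, where the members read 4.83% in the first 500 bp.

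The comparisons asked whether DBP changed methylation against the vehicle, and whether either co-treatment changed it against DBP. No member region was called in any of them by edgeR's quasi-likelihood test, in which the spread between samples enters, at a Benjamini-Hochberg adjusted p under 0.05, and no other promoter or body was called either (0% of those tested). Without adjustment, 1 of 42 member promoters had p under 0.05 between DBP and DMSO beside 3.01% of all promoters, 1 of 42 between DBP + agent and DBP beside 2.12%, and 1 of 42 between DBP + BR and DBP beside 3.86%. For bodies the counts were 2 of 43 beside 3.69%, 1 of 43 beside 3.05% and 2 of 43 beside 3.77%. These small counts moved with single samples: without DMSO sample 1, 8 of 43 bodies had p under 0.05 between DBP and DMSO, or 18.6% beside 7.9% of all bodies, and without any other single sample 0 to 4. Over all 4 groups 1 promoter and 0 bodies had p under 0.05, beside 3.60 and 4.61%, and limma called 0 regions too. Logistic regression, which takes no account of the spread between samples, called 2, 3 and 17 of the 42 member promoters, beside 3.69, 10.2 and 23.6% of all promoters, and 8, 15 and 27 of the 43 member bodies, beside 16.5, 24.1 and 39% of all bodies, in the same order. Over the 4 groups the smallest unadjusted p of member bodies were those of Lrp6 and Wnt5b, the second of which read 40.6, 58.5 and 46.2% in DMSO and 33.5, 30.8 and 37.6% in DBP.

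Between DBP and DMSO the promoters with the smallest unadjusted p were those of Ror2, a Wnt5a receptor, and Wnt2b. Ror2 read 4.39, 12.1 and 14.96% in DMSO and 5.66, 4.07 and 5.08% in DBP, and the groups overlapped (difference -5.53 points, edgeR adjusted p = 1.00). The Ror2 difference was -8.57 points without DMSO sample 1 and -3.29 without DMSO sample 3. Wnt2b read 7.99% ± 1.82 (SD, n = 3) in DMSO and 4.94% ± 1.84 in DBP. Among bodies Wnt9a read 68.5, 63.3 and 40% in DMSO and 71.9, 76.9 and 78.9% in DBP, without overlap (difference 18.6 points, edgeR adjusted p = 0.998), but the difference was 9.999 points without DMSO sample 3. Wnt6 read 12.3% ± 2.05 and 16.4% ± 1.33, also without overlap. All 3 DBP samples lay above the DMSO samples in 1 member promoter (4.82% of all promoters) and 3 member bodies (5.13%), and below them in 2 promoters (5.99%) and 2 bodies (7.44%).

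Between DBP + agent and DBP the promoters of Fzd7 and Fzd6 came first. Fzd7, a receptor known from intestinal stem cells, read 3.99, 4.32 and 4.62% in DBP and 6.94, 6.21 and 8.38% in DBP + agent (difference 2.87 points, edgeR adjusted p = 1.00). Among bodies Tcf7 read 68.3, 75 and 75.4% in DBP and 86.4, 86.7 and 83.4% in DBP + agent (difference 12.6 points, edgeR adjusted p = 1.00), followed by Wnt5a, at 26.4% ± 3.14 (SD, n = 3) and 19.7% ± 2.57. The groups did not overlap in these regions of Fzd7, Tcf7 and Wnt5a, and did overlap at Fzd6. All 3 DBP + agent samples were above DBP in 2 member promoters (6.3% of all) and 2 bodies (6.42%), and below in 1 promoter (2.81%) and 3 bodies (5.29%).

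Between DBP + BR and DBP the promoters of Wnt3 and Wnt10a came first. Wnt3, a ligand of canonical signalling, read 12.8, 9.18 and 8.20% in DBP and 7.15, 5.76 and 4.68% in DBP + BR (difference -4.18 points, edgeR adjusted p = 1.00). Among bodies Lrp6 read 56.9, 48.8 and 46.2% in DBP and 69.1, 86.8 and 58.1% in DBP + BR (difference 20.7 points, edgeR adjusted p = 1.00), with a difference of 12.9 points without DBP + BR sample 2. Wnt2 read 62.6% ± 7.69 (SD, n = 3) and 78.4% ± 4.97. Neither Wnt3, Lrp6 nor Wnt2 overlapped between these groups. All 3 DBP + BR samples were above DBP in 0 member promoters (2.31% of all) and 4 bodies (4.27%), and below in 2 promoters (7.74%) and 1 body (4.65%). The bodies of Lrp6, Tcf7 and Wnt6 did not overlap with DBP in either co-treated group. Lrp6 was also 11.7 points above DBP in DBP + agent, and Tcf7 6.19 points above it in DBP + BR. Wnt6 differed from DBP by -1.93 points in DBP + agent and -3.15 in DBP + BR. The bodies of Wnt5a, Fzd5, Wnt2 and Ror1 were apart from DBP in a single co-treated group. Both co-treated groups were set against the same 3 DBP samples, so these comparisons are not independent.

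Single CpGs were tested by logistic regression of pooled reads, which takes no account of the spread between samples, and called at q under 0.01 and a difference over 25 percentage points. Between DBP and DMSO 0 of the 305 member CpGs tested were called, in 43 genes, beside 0.056% of all 53602 CpGs. At a difference over 10 points 0 were called as well, beside 0.103%. At an unadjusted p under 0.05 there were 37 member CpGs, or 12.1% beside 10.8% of all. edgeR was run on the 39485 of all CpGs with both methylated and unmethylated reads and called 0, with 1431 at an unadjusted p under 0.05.

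Between DBP + agent and DBP 4 of 730 member CpGs were called, or 0.548%, beside 0.753% of all CpGs, and at 10 points 32 were called, or 4.38%, beside 5.34%. The share at 25 points was not always the lower one: with a minimum of 5 reads it was 31 of 1383, or 2.24%, beside 1.51%, and without DBP sample 1 it was 14 of 853, or 1.64%, beside 1.19%. Without any other single sample 5 to 11 member CpGs were called. The groups did not overlap at 2 of the 4, or 0.274% of the member CpGs tested, beside 0.478% of all. At the Wnt9a CpG the DBP samples read 25, 22.9 and 21.4% over 35 to 48 reads and the DBP + agent samples 46.1, 82.3 and 4% over 165, 113 and 25 reads, so 1 of the 3 lay below DBP. At the Lrp6 CpG DBP read 20, 13.6 and 6.67% over 10 to 22 reads and DBP + agent 21.9, 59.4 and 45.8%, without overlap. The Wnt11 CpG rose without overlap, from 42.9% ± 14.1 (SD, n = 3) to 73.2% ± 5.44, and the Wnt3a CpG fell with overlap, from 37.2% ± 15.5 to 11.5% ± 11.5. This Wnt3a CpG read 50, 41.7 and 20% in DBP and 16.7, 5.88 and 0% in DMSO, without overlap. Between DBP and DMSO it had the smallest p of the member CpGs (logistic regression q = 0.0449) but was not called. The same DBP samples enter both comparisons.

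Between DBP + BR and DBP 4 of 585 member CpGs were called, or 0.684%, beside 1.01% of all CpGs, and at 10 points 46 were called, or 7.86%, beside 8.65%. All 4 were lower in DBP + BR, or 0.684% of the member CpGs tested, beside 0.685% of all CpGs tested. Of the CpGs called at 25 points, those lower made up 100% among members and 67.7% among all. Of the 4, 3 had groups that did not overlap, or 0.513% of the member CpGs tested, beside 0.596% of all. The Gsk3b CpG read 34.8, 40 and 39.1% in DBP and 31.0, 5.26 and 6.19% in DBP + BR, and the Wnt5b CpG 100, 100 and 89.5% and 76.9, 48.9 and 78.4%, both without overlap. The DBP values at Wnt5b rest on 13 to 19 reads, and 13 of 13 methylated reads leave a Wilson interval from 77.2 to 100%. Ror2 read 86.2% ± 9.72 (SD, n = 3) and 52.1% ± 14.99 without overlap, and Sfrp1 58.1% ± 13.9 and 26.4% ± 26.2 with overlap. Of the 46 CpGs called at 10 points 38 were lower in DBP + BR, or 6.5% of the member CpGs tested, beside 5.04% of all CpGs. Of the CpGs called, those lower made up 82.6% among members and 58.3% among all. CpGs that were called at 10 points and whose groups did not overlap numbered 13, or 2.22% of the member CpGs tested, beside 3.23% of all. In these comparisons the scaling of coverage multiplied the DBP reads by 1.94 and 2.56, which treats them as more reads than were sequenced, and edgeR on unscaled reads called 1 of 91257 and 0 of 74095 CpGs at 25 points, with 4097 and 3581 at an unadjusted p under 0.05.

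**Figure D5:**
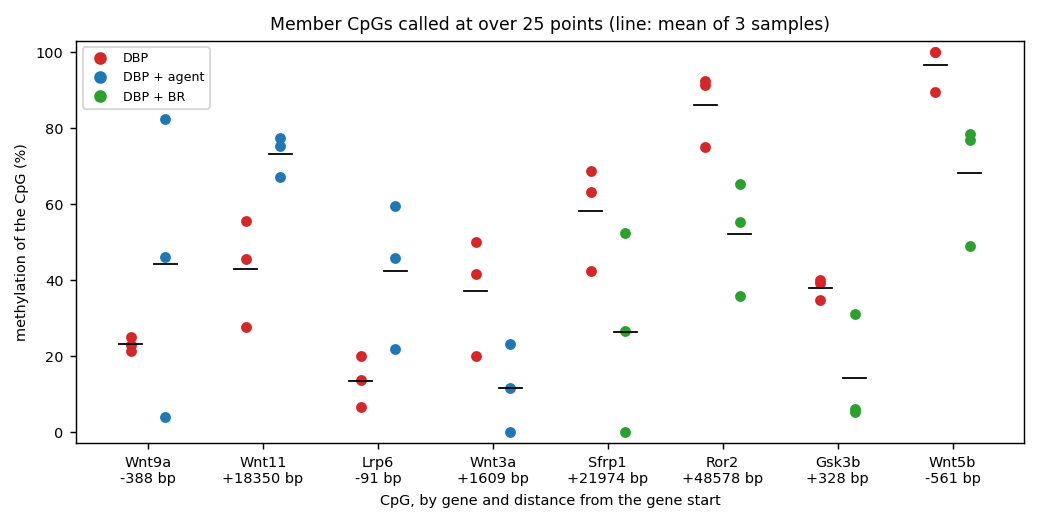
Methylation (percent) in each sample of the 8 member CpGs called at over 25 points, with DBP samples at the left of each pair, co-treated samples at the right and a line at the mean of 3. The Wnt9a CpG spans 4 to 82.3% within DBP + agent, and the Gsk3b CpG spans 5.26 to 31.0% within DBP + BR.

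Other genes of the pathway, a list of 58 that holds processing enzymes, Dishevelled proteins and feedback regulators, gave 47 promoters and 47 bodies with enough calls. By edgeR 0 of these regions were called in any comparison. The Ctnnb1 promoter lacked enough calls, and single CpGs of this list were not counted apart. The paper lists single CpGs at Ctnnb1 and Lrp4, both in this list, as differentially methylated between DBP and DMSO. The 47 promoters had a median of 5.43%, with 20% or more only at Porcn (20.6%), the Wnt acyltransferase, Amer1 (37.7%) and Dkkl1 (53.7%). The mice were female, and promoters on the X chromosome were not looked at apart from the others. Of the 47 promoters 1, 3 and 3 had an unadjusted p under 0.05 in the comparisons of DBP, DBP + agent and DBP + BR in that order, beside 3.01, 2.12 and 3.86% of all promoters, and of the bodies 1, 2 and 2, beside 3.69, 3.05 and 3.77% of all bodies.

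Markers of the cell types in the tissue were read in part. Of 12 genes of squamous epithelium 4 promoters had enough calls, of 10 of skeletal muscle 3, of 8 of leukocytes 0, of 7 of fibroblasts 3, of 5 of endothelium 1, of 4 of salivary gland 1 and of 4 of hepatocytes 0. Bodies with enough calls numbered 6, 5, 3, 4, 5, 1 and 0 in the same order. The mean of the 4 squamous promoters was 28.3 to 30.01% in the DMSO samples, 25.9 to 29.99% in DBP, 28.3 to 31.0% in DBP + agent and 26.0 to 28.0% in DBP + BR. Of these Krt4 read 88.5% over the 12 samples, and the median of the 4 was 10.04%. The salivary promoter, that of the water channel gene Aqp5, read 16.8 to 27.2% in DMSO and 9.39 to 14.5% in DBP, without overlap. All 3 DBP samples lay below DMSO in 5.99% of all promoters. In DBP + agent and DBP + BR Aqp5 read 12.9 to 17.0% and 8.91 to 26.9%. The salivary body read 84.7 to 89.6% in DMSO and 74.8 to 87.8% in DBP, with overlap. Muscle promoters averaged 21.2 to 29.8% and 23.9 to 30.7%, and fibroblast promoters 10.8 to 14.3% and 9.73 to 13.3%, both with overlap. The endothelial promoter read 16.9% ± 12.9 (SD, n = 3) in DMSO and 25.96% ± 4.75 in DBP, with overlap. The mean body level of the markers ran from 64.8 to 70.6% in DMSO and 63.3 to 65.5% in DBP for squamous epithelium, and from 57.3 to 66.1% and 58.4 to 67.0% for endothelium. For muscle it ran from 58.6 to 64.9% and 58.7 to 63.0%, for fibroblasts from 32.1 to 37.1% and 34.2 to 38.8%, and for leukocytes from 52.1 to 61.8% and 58.3 to 62.0%, and these groups overlapped in every list. The part of cell composition in the values was not tested.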

How the data were processed

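ERRBS was run on 12 samples of mouse oral tissue in 4 groups of 3, taken from the sample labels. Per the labels, the authors trimmed reads with Trim Galore 0.3.3 and mapped them to mm9 with Bismark 0.10.1. For each CpG cytosine the deposited files give counts of methylated and unmethylated reads, unnormalized, and the percent methylated the authors derived from them, which matched those counts and was set aside. PCR duplicates stay in the counts. The labels do not say how many mice a sample holds, so p-values of edgeR and limma are set against the spread between these samples, which may be technical. Those of logistic regression take no account of that spread.

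Counts were pooled over positions in GENCODE vM1 promoters and bodies with 20 or more reads in each sample, and tested with edgeR 4.0.16 (quasi-likelihood, sample effects, all 12 samples in 1 fit, Benjamini-Hochberg over all regions) in R 4.3.3. limma 3.58.1 and logistic regression were alternatives. Single CpGs followed the study's stated filters, with 10 or more reads, the 99.9th percentile removed and strands merged. Its normalization of coverage was done here by scaling each sample to the highest median, a choice of this re-analysis. methylKit was not run. Scaled reads were rounded to the nearest whole number with ties upward, the first of 3 roundings written. The other 2 were run after calls had been seen and are given as alternatives. Tests were checked on simulated data. Python 3.11.15 was used.

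Members and lists were chosen with earlier results of these data known. Named were, in each class, the highest and lowest promoter and body, promoters at 20% or more, the 2 smallest unadjusted p of each comparison, and CpGs called at 25 points (those at 10 points as counts). The parts of Lrp5, Wnt10a and Wnt11, Lef1 by group, neighbouring genes and the single markers were added after their values were seen. So were the Wnt3a CpG in DMSO and the bodies that did not overlap with DBP in the co-treated groups.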

Additional observations from a re-analysis of the deposited data

How the results depend on the processing

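Counts of 0 called promoters and bodies held under other read minimums, shared positions, limma, an adjusted p under 0.1, other promoter widths and without each sample in turn (0 to 0), and with the coverage limit except over the 4 groups, where 1 promoter that is no member was called. With the replicate number as a block 0 regions were called, and single CpGs gave 29, 933 and 1039 calls for DBP against DMSO, DBP + agent against DBP and DBP + BR against DBP. Deviations of same-numbered samples correlated between -0.10 and 0.21 in promoters and between -0.09 and 0.34 in bodies, not over 0.1 in every pair, so the numbers were not taken as pairs. Logistic regression, which has no spread between samples, called 388, 1068 and 2480 promoters and 1457, 2134 and 3450 bodies in the same order, and 6548 promoters and 6229 bodies over the 4 groups.

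Single CpGs, at 30, 959 and 1056 calls, gave 55, 6800 and 9030 at 10 points, 13, 116 and 144 with a minimum of 20 reads, and 0, 1 and 0 with edgeR. With a minimum of 5 reads the co-treated groups gave 3960 and 3641. Without scaling DBP against DMSO gave 14 and DBP + agent 530. Leaving out samples gave 14 to 71, 1248 to 2250 and 1690 to 2298, and member CpGs 0 to 0, 5 to 14 and 4 to 9. Chosen after seeing the data, rounding ties to even numbers gave 31, 960 and 1043 calls, and rounding methylated and unmethylated reads apart 31, 961 and 1052. Both left the member calls at 0, 4 and 4. The causes were not tested.

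Median promoter levels on positions read in all 12 samples were 8.11% for ligands, 7.88% for antagonists, 7.28% for R-spondins and 3.81% for intracellular components, and within 500 bp 5.60, 7.40, 7.97 and 3.51%. Median body levels with positions weighted equally were 53.2% over all members, 25.2% for receptors and 67.2% for intracellular components. On shared positions they were 49.2, 47.8 and 58.2%, and 43.0% for antagonists. With 50 or more reads they were 42.8% over all members, 28.4% for ligands, 21.2% for antagonists, 69.5% for R-spondins and 60.0% for intracellular components. These settings also change which members are included.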
